A study of Mus musculus with 4 samples.

Results

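The immunity-related GTPases (IRGs) of effector CD4 cells were examined through 7 genes, Irgm1, Irgm2, Igtp, Iigp1, Tgtp1, Tgtp2 and Ifi47, of the 23990 gene symbols in the tables. The rule takes them by name, with no threshold on their values, but they were chosen with earlier results of these data known. RNA had been sequenced from effector CD4 cells (CD44+CD4) of wild type C57BL/6 mice (C57BL/6J in the Methods) with EAE, a model of MS in which mice are immunized with a myelin peptide (MOG). One group came from the spinal cord (CNS) and the other from pooled draining lymph nodes (dLN), each with 2 libraries, both taken at disease onset. All 4 libraries share the genotype, the strain and the immunization, so the data hold no naive or unimmunized cells. According to the Methods, PMA and ionomycin were added to the cells after the sort, whereas the sample labels describe freshly sorted cells and name no stimulation. The sources used here do not give the age of the mice or the number of mice behind a library.

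IRGs are GTPases that cells make in response to interferons, above all IFNγ, and they are best known for attacking the vacuoles in which intracellular bacteria and parasites live. They fall into regulators and effectors. The regulators (Irgm1, Irgm2 and Igtp, which is also called Irgm3) sit on the cell's own membranes and hold the effectors inactive there. The effectors (Iigp1, Tgtp1, Tgtp2 and Ifi47) gather on vacuoles that lack the regulators, with help from the conjugation enzymes of autophagy. In CD4 cells, Irgm1 is known for protecting dividing cells from a death that IFNγ brings about. Interferons act on such genes through 2 kinds of DNA element. The interferon-stimulated response element is bound by IRF proteins, and the gamma-activated site is the element best known for answering IFNγ.

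The sequences just before the start sites are shown because they hold these elements' core letters. RefSeq windows of 300 bases (250 before the start and 50 from it, build GRCm38.p6) were given for 6 of the 7 genes. Both strands were searched for the interferon-response core GAAANNGAAA and the gamma-activated core TTCNNNGAA, where N is any base. In the stretches of 60 bases that follow, read 5′ to 3′ along each gene, capitals mark the letters of both cores.
Irgm1: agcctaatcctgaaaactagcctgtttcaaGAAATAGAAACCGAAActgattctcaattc
Irgm2: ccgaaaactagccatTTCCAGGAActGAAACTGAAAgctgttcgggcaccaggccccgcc
Igtp: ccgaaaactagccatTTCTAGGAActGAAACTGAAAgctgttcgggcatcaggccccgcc
Tgtp1: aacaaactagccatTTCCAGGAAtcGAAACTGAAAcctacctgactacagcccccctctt
Tgtp2: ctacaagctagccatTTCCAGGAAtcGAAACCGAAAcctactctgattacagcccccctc
The Irgm1 stretch is chr11:48871421-48871480 on the minus strand. Irgm2 is shown at chr11:58214887-58214946 and Igtp at chr11:58199496-58199555, both on the plus strand. Tgtp1 is shown at chr11:48992289-48992348 and Tgtp2 at chr11:49064249-49064308, both on the minus strand.

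Igtp, Irgm2, Tgtp1 and Tgtp2 held a gamma-activated core followed, after 2 bases, by an interferon-response core. Irgm1 held 2 overlapping interferon-response cores and no gamma-activated core. Over all 32851 windows, 3.44% held an interferon-response core, 8.30% a gamma-activated core and 0.454% both. The arrangement with 2 bases between the cores was noticed in these genes and then counted, and 5 windows (0.0152%) held it, those of the 4 genes and of their neighbour Gm12185. These genes are related copies, so the matches are not independent of each other, and the Igtp and Irgm2 stretches were identical at 58 of 60 bases. The Ifi47 window held neither core, but it belongs to a start 10430 bases upstream of the start of the transcript that carried at least 99.1% of the Ifi47 signal. The RefSeq start of Irgm1 lay 74 bases from the start of its transcript in the tables, and the other 4 starts were the same in both. Holding both cores was not particular to these genes. Of 4 guanylate-binding protein genes (another interferon-inducible GTPase family) with a window, 4 held an interferon-response core and 2 held both cores. Of 5 other IRG genes with a window, 2 held an interferon-response core and 1 (Gm12250) held both. A match is a description of the letters and not of binding, which was not measured.

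**Figure D1:**
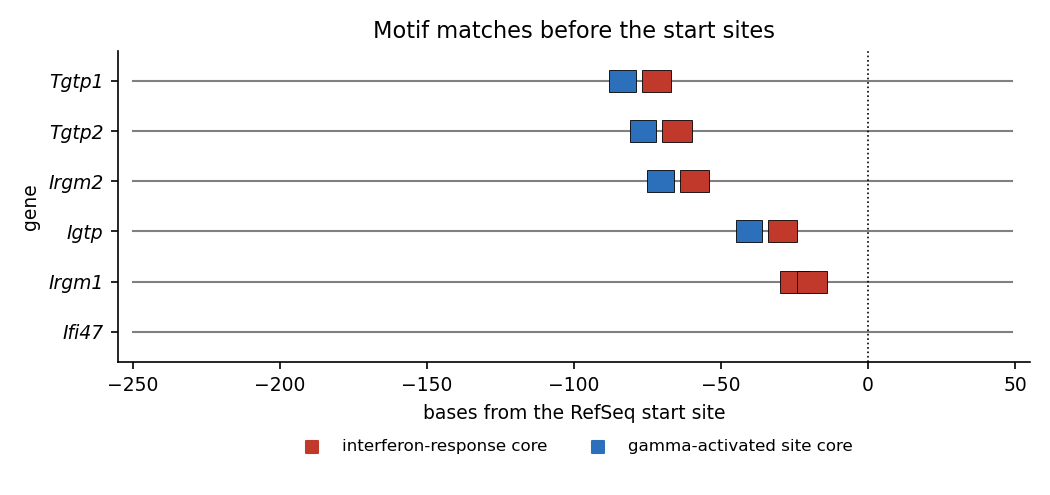
Positions of the core matches in the RefSeq windows of 6 genes, in bases from the start site (dotted line), with red boxes for the interferon-response core and blue boxes for the gamma-activated core. In 4 genes a blue box lies 2 bases before a red box, Irgm1 has 2 overlapping red boxes and the Ifi47 window has none.

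Expression was given as FPKM (fragments counted on a transcript, divided by its length in kilobases and scaled to how many fragments of that library were mapped), summed here over the transcripts of a gene. The steps of low FPKM values put the depth at 18.6 M to 22.1 M fragments, which gave each of the 7 genes 305 to 8585 fragments per library. The 7 T-cell markers in the tables were read in every library. Of these, Cd3d, Cd3e, Cd3g and Cd4 were higher in CNS (Cd4 at 502 and 531 against 82.0 and 66.7 FPKM), Cd44 and Cd5 were lower (log2 ratios -0.56 and -0.29) and Cd2 was not called (-0.01, adjusted p = 0.867). CNS replicate 2 stood apart in markers of other cells. The 14 macrophage, monocyte and microglia markers summed to 29.7 and 275 FPKM in CNS replicates 1 and 2 and to 4.61 and 4.22 FPKM in dLN, and 7 of them were listed at 0 in both dLN libraries (Csf1r, Aif1, Tyrobp, C1qa, C1qb, C1qc and Tmem119). Of the 12 tested, 8 were higher in CNS. The 4 neutrophil markers summed to 0.805 and 205 FPKM in CNS and were listed at 0 in dLN. The CNS libraries had Ddx3y, a Y-linked gene, at 12.7 and 11.2 FPKM, and both dLN libraries listed it at 0. Xist, made from the inactive X chromosome of female cells, was at 0 and 0.0026 FPKM in CNS and at 26.6 and 22.3 FPKM in dLN. This is the pattern of male mice in CNS and female mice in dLN, so the sex of the mice and the tissue cannot be told apart. In bulk samples, fewer cells of a type and less RNA per cell cannot be told apart either.

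All 7 GTPase genes were higher in CNS than in dLN effector CD4 cells, and in each the lower CNS library lay above the higher dLN library. The same order of libraries was found in 45.7% of the 10634 genes tested. Together the 7 genes summed to 695 and 602 FPKM in the CNS libraries and to 224 and 176 FPKM in the dLN libraries, a 3.25-fold difference of the means (649 ± 65.7 against 200 ± 33.6 FPKM, SD, n = 2). The summed FPKM of the 4 effectors was 4.18-fold higher in CNS and that of the 3 regulators 2.59-fold higher, a contrast that was not tested. Tgtp1 and Tgtp2 stood out with 9.24-fold and 8.93-fold differences of the mean FPKM, while Irgm1 had the smallest at 1.74-fold. Of the other effectors, Iigp1 was at 3.75-fold and Ifi47 at 2.74-fold, beside 3.08-fold for Igtp and 3.05-fold for Irgm2. The contrast of the sums was thus not shared by every effector.

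Among the regulators, Igtp had the highest level of the 7 genes in both tissues. Igtp was read at 219 and 191 FPKM in CNS replicates 1 and 2, and at 73.0 and 60.3 FPKM in dLN replicates 1 and 2. The groups lay far apart, with the lower CNS value 2.62 times the higher dLN value. Its log2 ratio of CNS over dLN was 1.61 (SE 0.13, limma adjusted p = 0.000388), on the scale of log2(FPKM + 1) that is used for all log2 ratios here and that understates the change of low genes. Irgm2, which lies beside it, was read at 26.2 and 24.7 FPKM in CNS and at 8.97 and 7.75 FPKM in dLN. The CNS libraries were again the higher pair and were close to each other. The log2 ratio of Irgm2 was 1.5 (SE 0.11, adjusted p = 0.000266), near that of Igtp although its level per length was far lower. Irgm1, the regulator linked to CD4 cell survival, was read at 78.5 and 70.1 FPKM in CNS and at 48.9 and 36.3 FPKM in dLN. Here the gap was narrow, since the lower CNS value was 1.43 times the higher dLN value. The log2 ratio of Irgm1 was 0.80 (SE 0.16, adjusted p = 0.00841). Its call was lost without CNS replicate 1 (log2 ratio 0.72, adjusted p = 0.0836) and without CNS replicate 2 (0.88, adjusted p = 0.0530).

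Among the effectors, Tgtp1 and Tgtp2 encode near-identical proteins that coat parasite vacuoles early. Tgtp1 was read at 81.3 and 71.9 FPKM in CNS and at 9.82 and 6.75 FPKM in dLN. Tgtp2 was read at 92.7 and 76.6 FPKM in CNS and at 11.5 and 7.49 FPKM in dLN. In dLN both genes were in the middle of the tested genes, at the 41.4th to 52.5th percentile of level, and in CNS they were near the top, at the 90.5th to 92.8th. Their log2 ratios were 3.08 (SE 0.18, adjusted p = 0.00018) and 3.05 (SE 0.21, adjusted p = 0.000266). Of the 50-base stretches of the Tgtp1 transcript, 89.4% also occur in Tgtp2, and 89.8% of those of Tgtp2 occur in Tgtp1, so the split of fragments between the copies is uncertain. Their sum does not depend on that split and was 174 and 148 FPKM in CNS and 21.3 and 14.2 FPKM in dLN (log2 ratio 3.13, adjusted p = 0.000226).

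Ifi47, an effector also called Irgd, was read at 179 and 144 FPKM in CNS and at 65.5 and 52.3 FPKM in dLN. The CNS values were again clear of the dLN values, with a log2 ratio of 1.44 (SE 0.16, adjusted p = 0.00106). Iigp1, the effector also called Irga6 whose structure and vacuole binding have been studied most, was read at 18.6 and 23.8 FPKM in CNS and at 5.96 and 5.35 FPKM in dLN. Its log2 ratio was 1.73 (SE 0.14, adjusted p = 0.000427). It was the only one of the 7 genes in which CNS replicate 2, the library with more macrophage and neutrophil transcripts, was above CNS replicate 1. A shorter transcript of 2940 bases carried 92.8% to 97.3% of the Iigp1 signal in all 4 libraries.

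**Figure D2:**
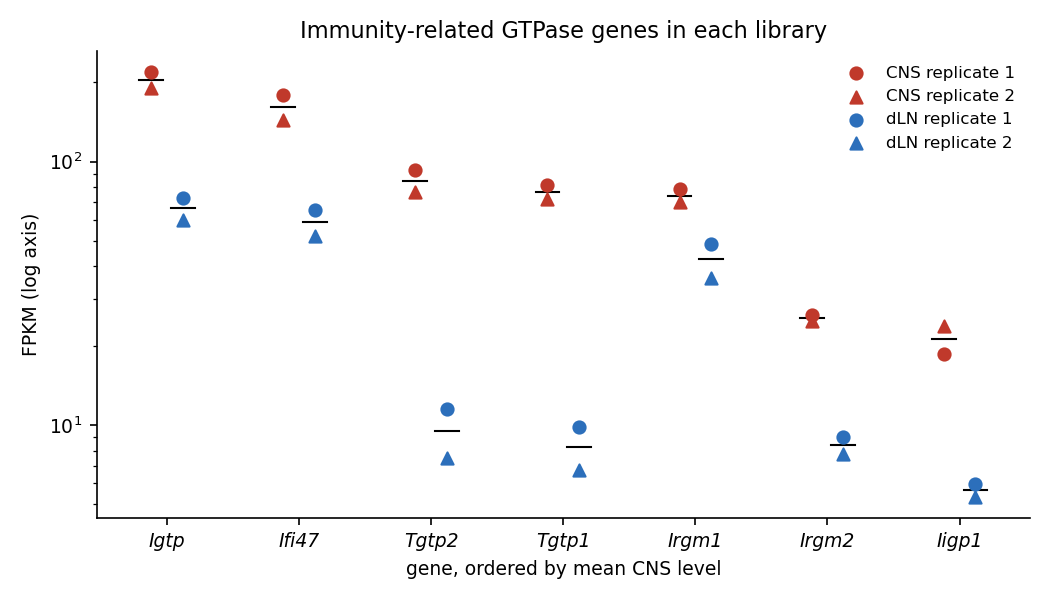
FPKM of the 7 genes on a log axis in CNS (red) and dLN (blue) libraries, circles for replicate 1, triangles for replicate 2 and bars for the mean of each tissue (n = 2). All CNS points lie above the dLN points of the same gene, from a narrow gap in Irgm1 to a wide one in Tgtp1 and Tgtp2.

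In the plot of FPKM by library, the order of the genes also differed between the tissues. In CNS the order of mean FPKM was Igtp, Ifi47, Tgtp2, Tgtp1, Irgm1, Irgm2 and Iigp1. The libraries of Tgtp2 and Tgtp1 overlapped, as did those of Tgtp1 and Irgm1, and the other neighbours in this order did not. In dLN the order was Igtp, Ifi47, Irgm1, Tgtp2, Irgm2, Tgtp1 and Iigp1, in which Igtp overlapped Ifi47, and Tgtp2, Irgm2 and Tgtp1 overlapped each other. Irgm1 was thus the third in dLN and the fifth in CNS. Set against Irgm1 within each library, Tgtp1 was at 1.04 and 1.03 times its FPKM in CNS and at 0.201 and 0.186 times in dLN. The same ratio for Igtp was 2.79 and 2.73 in CNS and 1.49 and 1.66 in dLN. The regulators made up 46.6% and 47.5% of the FPKM of the 7 genes in CNS and 58.5% and 59.2% in dLN, and the effectors made up the rest. The Tgtp pair, which belongs to the effectors, held 25.0% and 24.7% in CNS and 9.51% and 8.08% in dLN. Igtp kept a share of 31.5% to 34.2% in all libraries, while Irgm1 held 11.3% and 11.6% in CNS and 21.8% and 20.6% in dLN. With 2 libraries per tissue these shares are given without a test.

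The comparison was broad, and the count of the 7 genes has to be read beside it. Of the 10634 genes tested, 74.9% had an adjusted p under 0.05, 37.8% were called higher in CNS, and all 7 GTPase genes were among the latter. In 89.4% of the tested genes the tissues did not overlap, and in 45.7% both CNS libraries lay above both dLN libraries, as in all 7 here. The median log2 ratio of the 7 genes was 1.61, and that of all tested genes was 0.05. Among the log2 ratios of all tested genes, Irgm1 was at the 73.6th percentile, Ifi47, Irgm2, Igtp and Iigp1 were between the 86.5th and the 90.3rd, and Tgtp1 and Tgtp2 were at the 97.96th and 97.88th. With 2 libraries on each side, the smallest two-sided p of an exact permutation test is 0.333, so the calls rest on the spread that limma pools over genes. No source states that the 2 libraries of a tissue came from separate mice, and the p-values then measure only the spread between samples, which may be technical.

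Of the CNS libraries, the one with fewer macrophage and neutrophil transcripts had the higher level of 6 of the 7 genes, all but Iigp1. The 7 genes summed to 695 FPKM in CNS replicate 1, where the macrophage markers summed to 29.7 FPKM, and to 602 FPKM in CNS replicate 2, where they summed to 275 FPKM. Without CNS replicate 2 the median log2 ratio of the 7 genes was 1.59. That fit does not remove such cells, since the macrophage markers summed to only 4.61 and 4.22 FPKM in dLN. The comparison rests on a single pair of CNS libraries, and the part of such cells in the difference between tissues was not tested. Within each tissue the genes also moved together between libraries. Replicate 1 was above replicate 2 in 6 of the 7 genes in CNS and in all 7 in dLN, against 45.4% and 61.6% of all tested genes. These within-tissue gaps were smaller than the gaps between tissues, with a median of 0.18 (log2) in CNS and 0.32 in dLN. In Irgm1, however, the dLN gap of 0.42 was not small beside its log2 ratio of 0.80.

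Other IRG loci gave a similar picture. Of 12 further IRG or IRG-like symbols, 9 were in the tables, 7 were tested, 6 were higher in CNS and 1 was not called, with a median log2 ratio of 1.56. Gm12250, known as Irgb10 and as an effector that opens bacteria and their vacuoles, was read at 34.8 and 27.0 FPKM in CNS and at 6.35 and 4.24 FPKM in dLN (log2 ratio 2.35, adjusted p = 0.00053). 9930111J21Rik1 was read at 41.8 and 34.7 FPKM in CNS and at 3.005 and 1.51 FPKM in dLN. Its log2 ratio of 3.62 (adjusted p = 0.000252) was above that of any of the 7 genes, but 48.7% of its 50-base stretches occur in other genes of the family. Gm4951, Gm4841 and Gm5431 were at most 2.78 FPKM in any library, with log2 ratios of 1.18 to 1.56. The scale of FPKM + 1 understates these low genes, whose mean FPKM differed 21.3-fold, 6.62-fold and 22.1-fold. The median of the other IRG loci, 1.56, is the value of Gm4951. Irgq, a divergent relative, was read at 2.71 and 2.55 FPKM in CNS and at 2.57 and 2.04 FPKM in dLN and was not called (adjusted p = 0.389). Irgc1, a testis gene, was at most 0.0328 FPKM and was not tested.

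**Figure D3:**
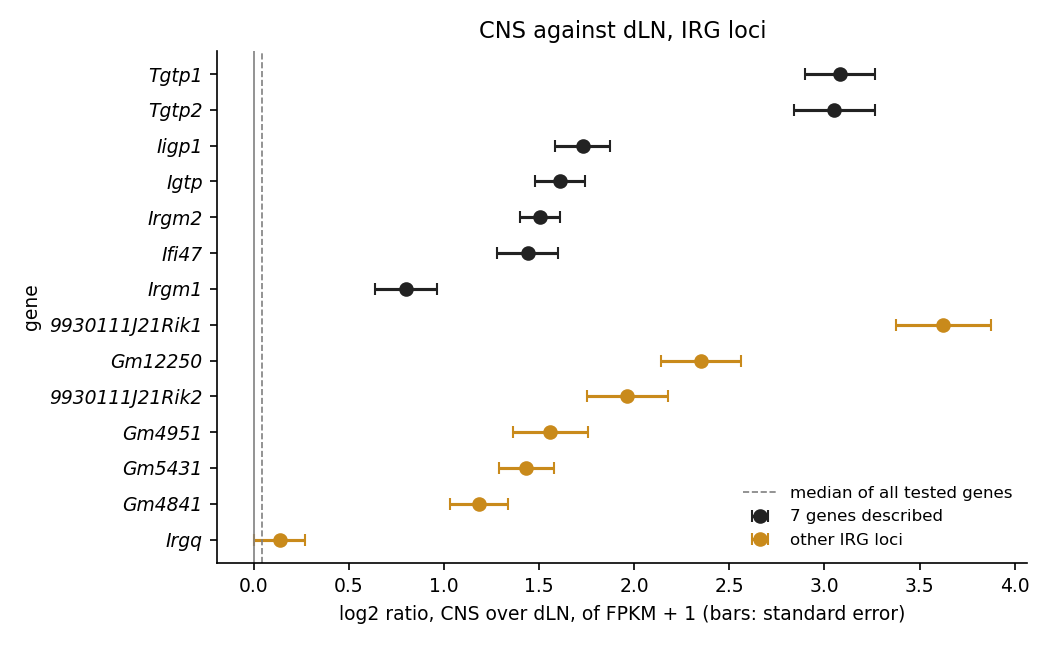
Log2 ratio of CNS over dLN of FPKM + 1 for the 7 genes (black) and the other tested IRG loci (ochre), with bars for the standard error and a dashed line at the median of all tested genes (0.05). Irgm1 at 0.80 is the lowest black point, Tgtp1 at 3.08 the highest, and Irgq at 0.14 lies near the line.

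The genes lie in 3 clusters, and their neighbours outside the IRG symbols listed here moved in both directions. Coordinates are those of the deposited tables (build mm10), with strand and exon number of the annotated transcripts from GENCODE. The first cluster runs from Irgm1 (chr11:48865249-48871346, minus strand, 3 exons) through Tgtp1 (chr11:48985329-48992246, minus strand, 2 exons) and Tgtp2 (chr11:49057196-49064212, minus strand, 2 exons) to Ifi47 (chr11:49087017-49096987, plus strand, 2 exons). The second holds Igtp (chr11:58199556-58207592, plus strand, 3 exons) and Irgm2 (chr11:58214977-58222783, plus strand, 2 exons). The third holds Iigp1 (chr18:60376029-60392629, plus strand, 2 exons). Within 200 kb of the 7 genes, 6 of the 6 tested IRG neighbours were higher in CNS (median log2 ratio 1.76). Of 29 other neighbours, 6 of them olfactory receptor genes, 17 were tested, of which 7 were higher, 5 lower and 5 not called, with a median log2 ratio of 0.15. Their share of genes called higher was near the 37.8% of all tested genes. These 29 were sorted by symbol, and whether Gm12185, described below, belongs to the family was not examined. The entry of Olfr56, called higher (log2 ratio 0.54), spans Tgtp2 and Ifi47, so its fragments may be shared with them. Gemin5, which helps to assemble small nuclear ribonucleoproteins, lies near Igtp and had a log2 ratio of -2.52 (3.74 FPKM in CNS and 26.1 FPKM in dLN, means). Larp1, a regulator of ribosomal protein mRNAs, had -2.24 (25.8 and 126 FPKM, means). The exception in size was Psme2b, a copy of a proteasome activator gene, at 20.1 and 1.53 FPKM (log2 ratio 3.06, adjusted p = 9.39e-05). It overlaps 9930111J21Rik1 and resembles Psme2, so its fragments may be shared with either. Gm12185, whose window held the same arrangement of cores as 4 of the 7 genes, was at 1.49 and 0.423 FPKM (log2 ratio 0.81, adjusted p = 0.00937).

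**Figure D4:**
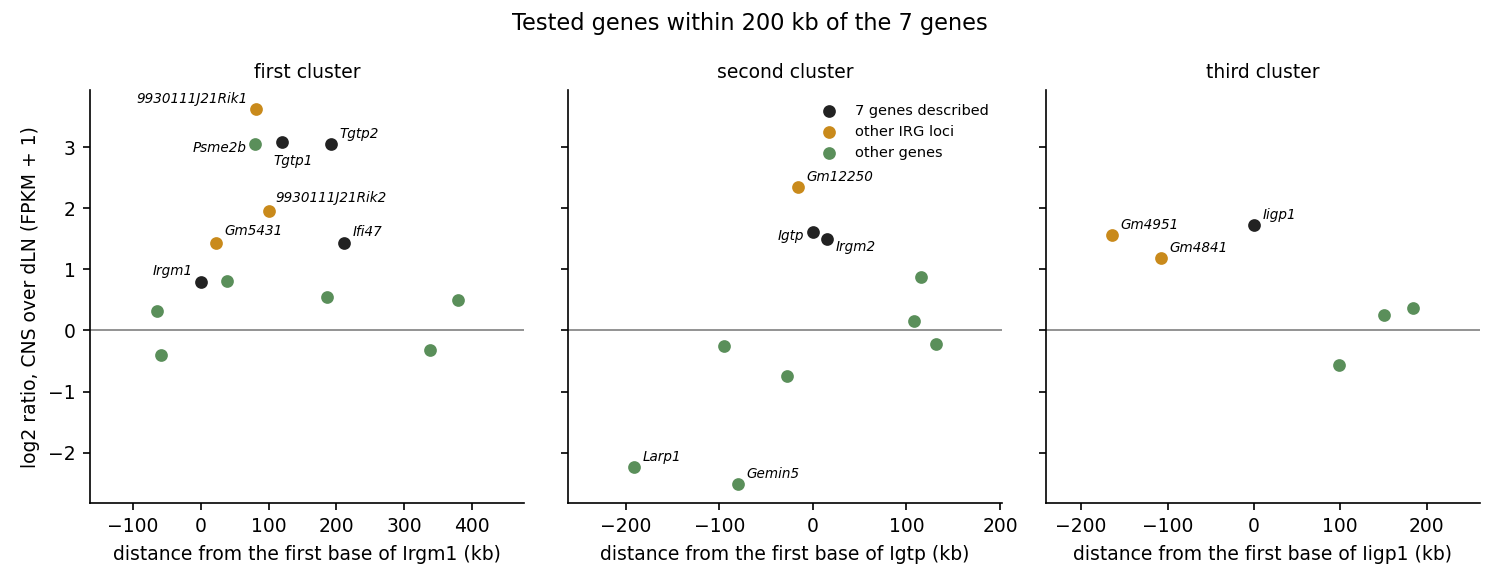
Log2 ratio of CNS over dLN for each tested gene within 200 kb of the 7 genes, against its distance in kb from the first base of Irgm1, Igtp or Iigp1, with the 7 genes in black, other IRG loci in ochre and other genes in green. The black and ochre points all lie above 0, while the green points lie on both sides, from Gemin5 at -2.52 to Psme2b at 3.06.

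Genes of the IFNγ pathway, which induces IRGs, went in both directions, as did the tested genes as a whole. Ifng, the ligand, was read at 469 and 693 FPKM in CNS and at 324 and 138 FPKM in dLN (log2 ratio 1.43, SE 0.44, adjusted p = 0.0343). The dLN libraries differed more from each other than those of any of the 7 GTPase genes, and the call of Ifng was lost when a library was left out in 3 of 4 cases. Its log2 ratio was 1.71 without CNS replicate 1 (adjusted p = 0.116), 1.15 without CNS replicate 2 (adjusted p = 0.218) and 0.81 without dLN replicate 2 (adjusted p = 0.0686). With no filter on low values the adjusted p of Ifng was 0.0986. Ifngr1, the ligand-binding receptor chain, was read at 497 and 471 FPKM in CNS and at 14.7 and 11.02 FPKM in dLN, a log2 ratio of 5.14 (adjusted p = 8.12e-05). Ifngr2, the signalling chain, was at 1.32 and 3.14 FPKM in CNS and at 3.41 and 2.83 FPKM in dLN, so the tissues overlapped (log2 ratio -0.41, adjusted p = 0.264). Without CNS replicate 2 it was called lower in CNS (-0.83, adjusted p = 0.023), and without CNS replicate 1 it was at 0.012 (adjusted p = 0.947). Their kinases went opposite ways. Jak1 was higher in CNS (176 and 156 against 53.9 and 49.96 FPKM, log2 ratio 1.66), and Jak2 was lower (29.4 and 31.6 against 191 and 214 FPKM, log2 ratio -2.69).

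Irf1, a transcription factor that is itself induced by IFNγ, was read at 97.1 and 125 FPKM in CNS and at 43.6 and 35.9 FPKM in dLN (log2 ratio 1.45, adjusted p = 0.0011). Its tissues did not overlap, as in the 7 genes and in 89.4% of all tested genes. Among the inhibitors, Socs3 was higher in CNS (log2 ratio 2.39, adjusted p = 0.00109). Socs1 had a log2 ratio of -0.39 (adjusted p = 0.0247), and its call was lost in 4 alternatives. These were the same upper quartile per library (-0.25, adjusted p = 0.07), the highest transcript per gene (-0.41, adjusted p = 0.108), and leaving out dLN replicate 1 (-0.37, adjusted p = 0.109) or dLN replicate 2 (-0.40, adjusted p = 0.0924). Over the list of 12 signalling genes, 6 were higher, 4 were lower and 2 were not called, with a median log2 ratio of 0.57. Of all tested genes, 74.9% were called in either direction and 37.8% were called higher in CNS. The count of 10 called genes was 6 without dLN replicate 2.

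Of 15 IFNγ target genes that are not GTPases, 14 were tested, and 12 were higher and 2 lower in CNS (median log2 ratio 1.65, beside 1.61 for the 7 genes). Among the 12, some were well above in CNS replicate 2, the library with more macrophage transcripts. Cxcl9 was at 1.46 and 11.7 FPKM in CNS replicates 1 and 2, Cxcl10 at 15.6 and 51.7 FPKM and Ciita at 0.81 and 2.16 FPKM. The part of such cells in these counts was not tested. Psmb8, a subunit of the immunoproteasome, was read at 420 and 426 FPKM in CNS and at 69.8 and 57.5 FPKM in dLN (log2 ratio 2.72). Cd274, which encodes the inhibitory ligand PD-L1, went the other way at 23.8 and 36.6 FPKM in CNS and 66.9 and 74.7 FPKM in dLN (log2 ratio -1.23, adjusted p = 0.00494). The guanylate-binding proteins, larger interferon-inducible GTPases that work with IRGs at vacuoles, had 8 of 9 tested genes higher and Gbp5 not called (log2 ratio 0.29, adjusted p = 0.216), with a median of 2.08. Gbp5 was called without CNS replicate 1 (0.54, adjusted p = 0.0397). The type I interferon arm was higher in 15 of 15 genes with a median of 2.83, from Ifnar2 at 0.74 to Ifit3 at 5.25. It includes Stat2 (1.85) and Irf9 (1.94), which act at interferon-stimulated response elements. IRG genes can answer both kinds of interferon, and which of them acted on these cells was not tested.

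The autophagy machinery that IRG loading uses showed no common direction. Of 15 genes tested, 5 were higher in CNS, 3 were lower and 7 were not called, with a median log2 ratio of 0.06. The ubiquitin-like proteins Gabarapl2 (186 and 174 against 65.4 and 57.8 FPKM, log2 ratio 1.53) and Gabarap (log2 ratio 1.23) were higher, and their relative Gabarapl1 was lower (log2 ratio -1.23). Atg12, which is joined to Atg5, was higher (log2 ratio 0.98). Atg16l1, which brings the conjugation complex to membranes, was lower at 5.70 and 6.27 FPKM in CNS and 17.8 and 19.1 FPKM in dLN (log2 ratio -1.48, adjusted p = 0.000225). The conjugating enzymes Atg7 and Atg3 had log2 ratios of 0.03 (adjusted p = 0.81) and 0.04 (adjusted p = 0.724), and Atg5 had 0.30 (adjusted p = 0.0811). Atg5 was called when libraries were scaled to the same upper quartile (0.43, adjusted p = 0.0282).

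**Figure D5:**
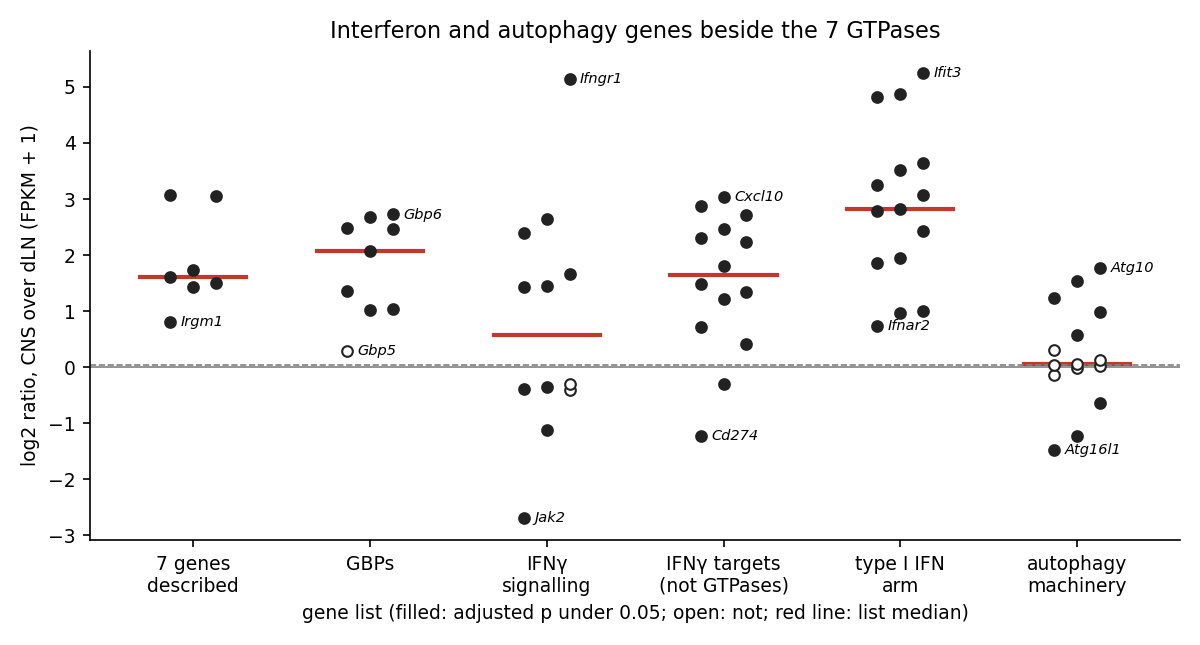
Log2 ratio of CNS over dLN for each tested gene of 6 lists, filled where the adjusted p was under 0.05 and open where it was not, with a red line at each list's median and a dashed line at the median of all tested genes (0.05). The 7 genes, the guanylate-binding proteins, the IFNγ targets and the type I arm lie mostly above 0, while the signalling and autophagy lists spread to both sides.

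Other genes were ranked by how near their pattern over the 4 libraries lay to the median pattern of the 7. Of 6403 genes that reached a mean of 10 FPKM in CNS or dLN, the 5 nearest were Man2a1 (a Golgi mannosidase), Churc1, Ostm1 (a subunit of a lysosomal chloride transporter), Erlec1 (a lectin of the endoplasmic reticulum) and Ublcp1 (a phosphatase of the proteasome). Man2a1 was read at 23.4 and 21.4 FPKM in CNS and at 7.74 and 6.02 FPKM in dLN. Its distance, the Euclidean distance between centred log2 values, was 0.052, and those of the other 4 were 0.057 to 0.073. Of the 7 genes, Igtp lay at 0.031 and Irgm2 at 0.12, but Tgtp1 lay at 1.496, and 2563 of the ranked genes were nearer than that. The median pattern came from the 7 genes themselves, so Igtp, which has their median log2 ratio, lies near it by construction. With 4 libraries in 2 groups, likeness says mainly that the size of the difference was alike.

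Genes that respond to stimulation through the T-cell receptor pathway also differed with tissue. Of 10 such genes, 8 were lower in CNS, 1 was higher (Cd69) and 1 was not called (Egr1). Il2 was read at 18.2 and 38.8 FPKM in CNS and at 5363 and 6176 FPKM in dLN. All of the stimulation genes but Egr1 separated the CNS from the dLN libraries, as did Ddx3y and the 7 GTPase genes, though 8 of them in the opposite direction. The part of stimulation or sex in the GTPase difference was not tested. In these 4 libraries neither can be told apart from tissue.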

How the data were processed

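RNA of effector CD4 cells was measured in 4 libraries, 2 per tissue. The authors deposited FPKM per RefSeq transcript of build mm10, as separate tables of 33819 transcripts for CNS and dLN. The aligner and FPKM program are not given in the sources used here. The CNS header holds both library names in a single cell, and the value columns were taken to follow that order. There were 0 other columns of per-sample values. FPKM was summed by gene symbol, and 565 transcripts without a symbol (0.142% to 0.446% of FPKM) were left out. Genes whose mean reached 1 FPKM in CNS or dLN were tested on log2(FPKM + 1) with limma 3.58.1 in R 4.3.3 (lmFit, eBayes with trend). The fit held tissue alone, and p-values were adjusted over all genes by Benjamini-Hochberg and called under 0.05. The script was tested on simulated data. Depth came from low FPKM values, of which 88.3% to 94.4% lay within 0.1 of a whole number of fragments.

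The genes named are the 7 GTPases, other IRG symbols, fixed lists of interferon, guanylate-binding protein, autophagy, stimulation, sex-linked and cell type marker genes, neighbours within 200 kb and the 5 most alike genes. The other marker lists summed as follows. Neural markers were at 49.8 to 58.3 FPKM per library, mostly Mbp. Without Mbp they were at 1.22 and 5.38 FPKM in CNS and 0.326 and 0.627 FPKM in dLN, and Gfap was called higher in CNS (adjusted p = 0.0312). Endothelial markers were at 20.7 and 25.3 FPKM in CNS and 12.0 and 9.66 FPKM in dLN, and dendritic cell markers at 7.59 and 9.40 against 3.21 and 2.11 FPKM. B cell markers were at most 1.76 FPKM and CD8 T or NK cell markers at most 6.55 FPKM. Not every gene of the lists is reported here. Members and lists were chosen with earlier results of these data known. Python 3.11.15, numpy 2.4.6, pandas 2.3.3 and matplotlib 3.10.9 were used for the rest. Alternatives covered the pseudocount, 3 scalings, the highest transcript, 3 filters, eBayes without trend, a minimum ratio, a replicate block and leaving out each library.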

Additional observations from a re-analysis of the deposited data

How the results depend on the processing

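Over 15 alternative fits for each of the 7 genes, 103 of 105 log2 ratios kept both their sign and their call. The exceptions were those of Irgm1 without CNS replicate 1 or 2. Leaving out each library gave log2 ratios of 0.59 to 1.01 for Irgm1, 1.41 to 1.60 for Irgm2, 1.47 to 1.75 for Igtp, 1.56 to 1.90 for Iigp1, 2.84 to 3.32 for Tgtp1, 2.78 to 3.33 for Tgtp2 and 1.28 to 1.60 for Ifi47. Scaling libraries to the same sum moved the median of all tested genes from 0.05 to -0.13 and that of the 7 genes to 1.41, and the same upper quartile moved them to 0.16 and 1.74. With a minimum log2 ratio of 1, 4168 genes were called in place of 7968, and 6 of the 7 GTPases, all but Irgm1. A mean of at least 5 FPKM in a tissue, or at least 1 FPKM in every library, left 2 of the other IRG loci called in place of 6, and the latter left 9 of 15 type I genes, since fewer genes were tested. The calls of the IFNγ signalling list ranged from 6 to 9 when each library was left out. The direction of Irgq (-0.0028), Atg3 (-0.15) and Atg7 (-0.15), none of them called, turned with the same sum, and that of Atg7 (-0.19) with the highest transcript. Leaving out each library gave -0.83 to 0.012 for Ifngr2, -0.085 to 0.15 for Atg7 and -0.015 to 0.086 for Atg3. The cause was not tested. The labels number libraries 1 and 2 in both tissues, but Xist and Ddx3y place the tissues in mice of different sex, so no mouse gave both. The replicate differences correlated by only 0.0933, and the numbers were not taken as a pairing. With a replicate block, 7828 genes and all 7 GTPases were called, and Atg5 gained a call (adjusted p = 0.0372). Depth was estimated, and 2 libraries per tissue limit every statement.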
